A study of Rattus norvegicus with 12 samples.

Results

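The translation factors and aminoacyl-tRNA synthetases of rat mesenteric lymph nodes (MLN) were represented by 90 of the 14217 genes that had a probe set with a single gene symbol on the array. They were taken by name alone. A gene was a member if its symbol began with Eif or Eef followed by a number, or if it was an aminoacyl-tRNA synthetase named by a capital letter and ars, ars1 or ars2, together with Eprs1. The letters also bring in regulators, such as the eIF2-alpha kinases (Eif2ak genes), the eIF4E-binding proteins (Eif4ebp genes) and the enzymes that methylate eEF1A (Eef1akmt genes). By role, read from the symbol alone, 49 members belonged to initiation, 11 to elongation and 30 to tRNA charging, of which 17 were cytosolic and 13 mitochondrial synthetases. The brightest probe set, by mean over the 12 arrays, stood for each gene, and 88 of the 90 members were above the background of the array in all 12 arrays. The exceptions were Eef1a2 and Eif2s3y, which were above it in 10 arrays each.

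Protein synthesis starts when eIF2 brings the initiator tRNA to the small ribosomal subunit, which carries eIF1, eIF1A and the many-subunit eIF3, while eIF4E, eIF4G and eIF4A bind the capped end of the mRNA and unwind it. The elongation factors eEF1A and eEF2 then deliver charged tRNAs and move the ribosome along, and each amino acid is joined to its tRNA by a synthetase of its own. Phosphorylation of eIF2 by 4 kinases slows initiation and favours translation of the transcription factor Atf4, which is known to drive genes of amino acid supply and several synthetases, and mTORC1 releases eIF4E from its binding proteins. In a lymph node this machinery is known to be used most by dividing lymphocytes and by plasma cells.

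Nodes were taken at day 21, at weaning, from Wistar pups, with 1 array for each of 3 pups in groups A, B, C and D. Conjugated linoleic acid (CLA) reached the pups of group A from dams on a diet with 1% CLA, in the last 2 weeks of gestation and then through the milk for 3 weeks, which makes 5 weeks in all. Dams of group B ate the CLA diet in gestation only, and their pups were given CLA by daily oral gavage while suckling, also for 5 weeks in all. Pups of group C, born to dams on standard diet, received CLA by gavage for the 3 weeks of suckling, and group D, the reference, had dams on standard diet and no CLA. Group A is thus the only group given CLA through milk. The sources used here mention no sham gavage of group D, so CLA by gavage and the gavage itself cannot be told apart in groups B and C. The 3 pups of a group were separate animals drawn at random from 10, and the sources used here do not give their litters. Litters were set at 10 pups per dam, so the pups of a group may have shared 1 dam. In that case dam or litter and diet cannot be told apart. The p-values measure the spread between these pups, not between dams or litters.

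Levels are log2 intensities after quantile normalization, and members were called at an adjusted p under 0.05 in limma, in either direction, with Benjamini-Hochberg adjustment over all 31042 probe sets. With this scaling the median difference over all 14217 genes was 0.15 for group A minus group D, -0.11 for group B minus D, -0.12 for group C minus D and 0.32 for group A minus the mean of groups B and C. Differences of members are to be read against these shifts. Comparisons with group D share its arrays. In array D3 (group D replicate 3) the profile over all genes resembled groups B and C, with a mean r of 0.931 and 0.930 with their arrays against 0.896 with D1 and D2 (r over probe sets of each pair of arrays, with probe sets not counted as replicates). The T cell genes Cd3e, Cd3d, Cd3g, Cd2, Cd5, Lck, Cd4 and Cd8a were above background in every array, with a summed log2 level of 12.74 to 13.24. Smooth muscle markers (Actg2, Cnn1, Myh11, Acta2 and Des) had a summed log2 level of 12.39 in D1 and 12.35 in D2, and of 8.53 to 9.61 in the other 10 arrays, D3 at 9.11 included. The ratio of the 3' to the 5' probe set of hexokinase, a measure of RNA integrity, ran from 2.84 to 4.96 in group A. It ran from 1.62 to 3.24 in B, from 1.82 to 2.62 in C and from 1.84 to 2.53 in D. The same ratio for Gapdh was 1.21 to 1.53 in group A and 1.06 to 1.28 in the other groups. For beta-actin it was 1.37 to 1.79 in A, 1.44 to 1.79 in B, 1.6 to 1.74 in C and 1.3 to 1.91 in D. These beta-actin ranges overlapped. The 5' probe set of hexokinase was dim in deposited values, at 9.0 to 17.0 in A and 7.2 to 14.1 in B. It was at 11.4 to 13.1 in C and 14.5 to 37.5 in D. The part of the muscle signal and of the RNA ratios in the results that follow was not tested. In whole nodes, fewer cells of a type and less RNA per cell cannot be told apart.

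Translation genes passed the test between groups A and D in both directions. Of the 90 members 31 were lower in group A than in group D, against 12.0% of all genes, and 6 were higher, against 16.0% of all genes. The median difference of the members was -0.27 on the log2 scale. With the values as deposited, not brought to 1 level between arrays, 23 were lower and 0 higher, and the medians were -0.31 for the members and -0.02 for all genes. Against the mean of groups B and C, 33 members were lower in group A (16.9% of all genes) and 24 higher (31.6% of all genes), with a median of -0.20. With the values as deposited these counts were 16 lower and 35 higher. The comparisons share group A. In both, 28 members were lower (31.1%, beside 10.8% of all genes) and 4 higher (4.44%, beside 15.1% of all genes). All arrays of group A lay below all 9 others in 29 members, or 32.2%, against 12.2% of all genes, and above all others in 15, or 16.7%, against 23.1% of all genes.

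**Figure D1:**
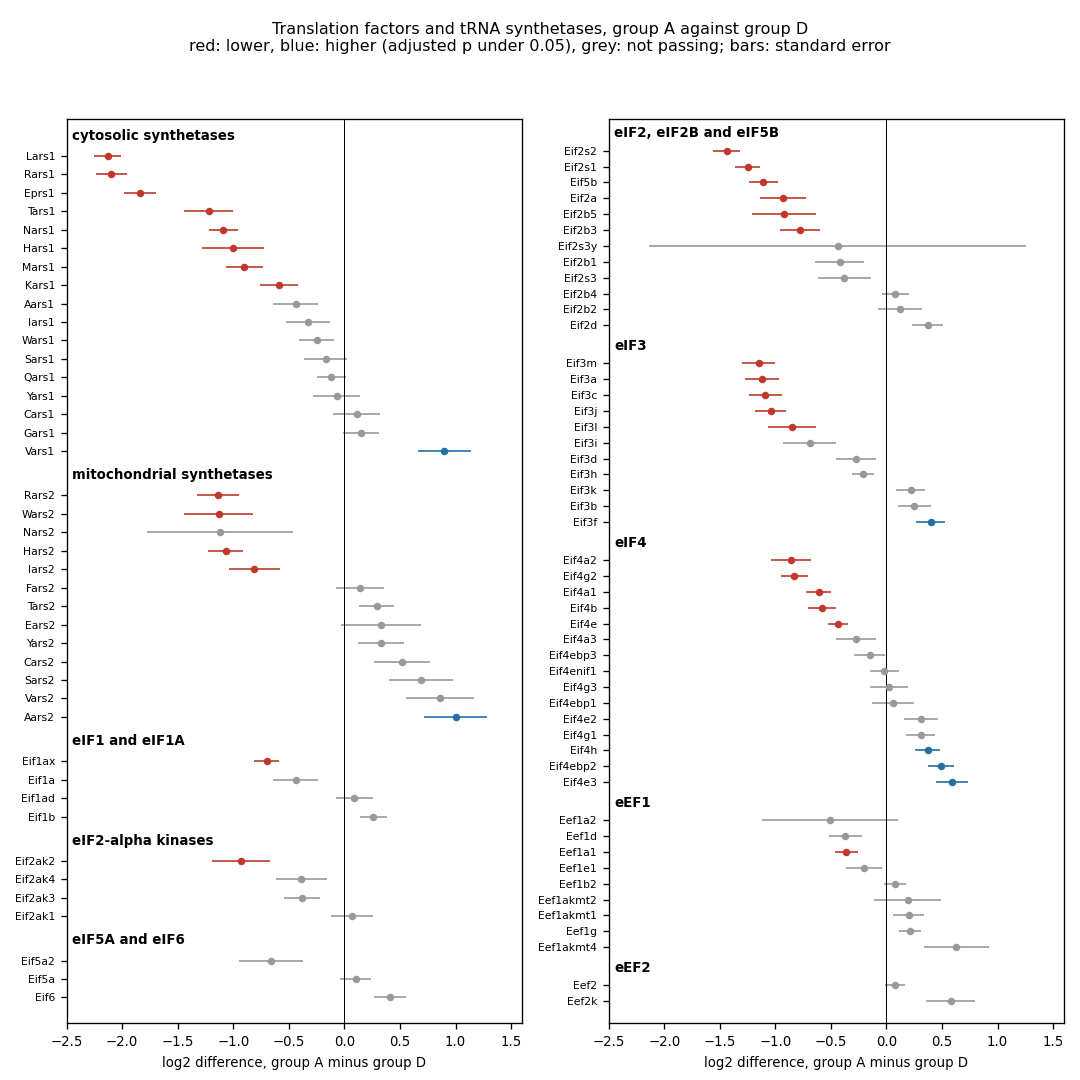
Log2 difference of group A minus group D for each of the 90 members, by role, with points for the difference and bars for its standard error (3 arrays a group). Red points are the 31 members that were lower, blue points the 6 that were higher and grey points those that did not pass; the differences run from -2.13 for Lars1 to 1.00 for Aars2.

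Between groups A and D the 3 largest falls of the members were those of cytosolic synthetases. Of 17 measured, 8 were lower in group A than in group D (12.0% of all genes) and 1 was higher (16.0%). The median was -0.44. Lars1, the leucyl-tRNA synthetase, which is also known as a leucine sensor for mTORC1, had log2 intensities of 6.55, 6.35 and 6.26 in A1, A2 and A3, and of 8.48, 8.45 and 8.62 in D1, D2 and D3. In groups B and C it was between 8.52 and 8.78, so group A stood below all other arrays and the other 3 groups overlapped. The difference between A and D was -2.13 ± 0.12 (SE), a 4.37-fold lower level, with an adjusted p of 8.9e-07 in limma.

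Rars1, the arginyl-tRNA synthetase, was at 6.85, 6.83 and 6.62 in group A and at 9.11, 8.93 and 8.57 in group D, a difference of -2.10 ± 0.14. Its values in groups B and C, from 8.53 to 8.77, were close to D3 and under D1 and D2. Eprs1, a fused enzyme that charges both glutamate and proline, was at 6.85, 6.37 and 6.57 in group A, at 8.58, 8.52 and 8.21 in group D and at 8.27 to 8.48 in groups B and C. Its difference between A and D was -1.84 ± 0.14. These 3 enzymes are known to sit in the multi-synthetase complex with Kars1, Mars1, Qars1, Iars1 and the aspartyl enzyme.

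Of the other members of that complex, Mars1 (methionyl, -0.90) and Kars1 (lysyl, -0.59) were lower in group A than in D, while Iars1 (isoleucyl, -0.33, adjusted p of 0.305 in limma) and Qars1 (glutaminyl, -0.12, adjusted p of 0.578 in limma) did not pass. Qars1 had the highest mean of the cytosolic synthetases, with 9.44 to 10 in group A and 9.78 to 9.82 in group D. Outside the complex Tars1 (threonyl, -1.22), Nars1 (asparaginyl, -1.09) and Hars1 (histidyl, -1.0) were lower. For Kars1 and Hars1, A1 (9.10 and 6.93) lay above D3 (9.06 and 6.74), and neither passed against groups B and C. For Tars1 the arrays of group A were 7.44, 6.49 and 6.65 and those of group D 8.31, 8.15 and 7.77, so A1 lay closer to D3 than A2 and A3 did. Aars1, Wars1, Sars1, Yars1, Cars1 and Gars1 had differences from -0.44 to 0.15 and did not pass.

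Vars1, the valyl-tRNA synthetase, went the other way. It was at 7.56, 7.69 and 7.55 in group A, at 6.96, 6.80 and 6.33 in group D and at 6.17 to 6.98 in groups B and C, so that group A lay above all other arrays. The rise over group D was 0.90 ± 0.24, with an adjusted p of 0.0166 in limma, and the call was lost without A2 (0.86).

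**Figure D2:**
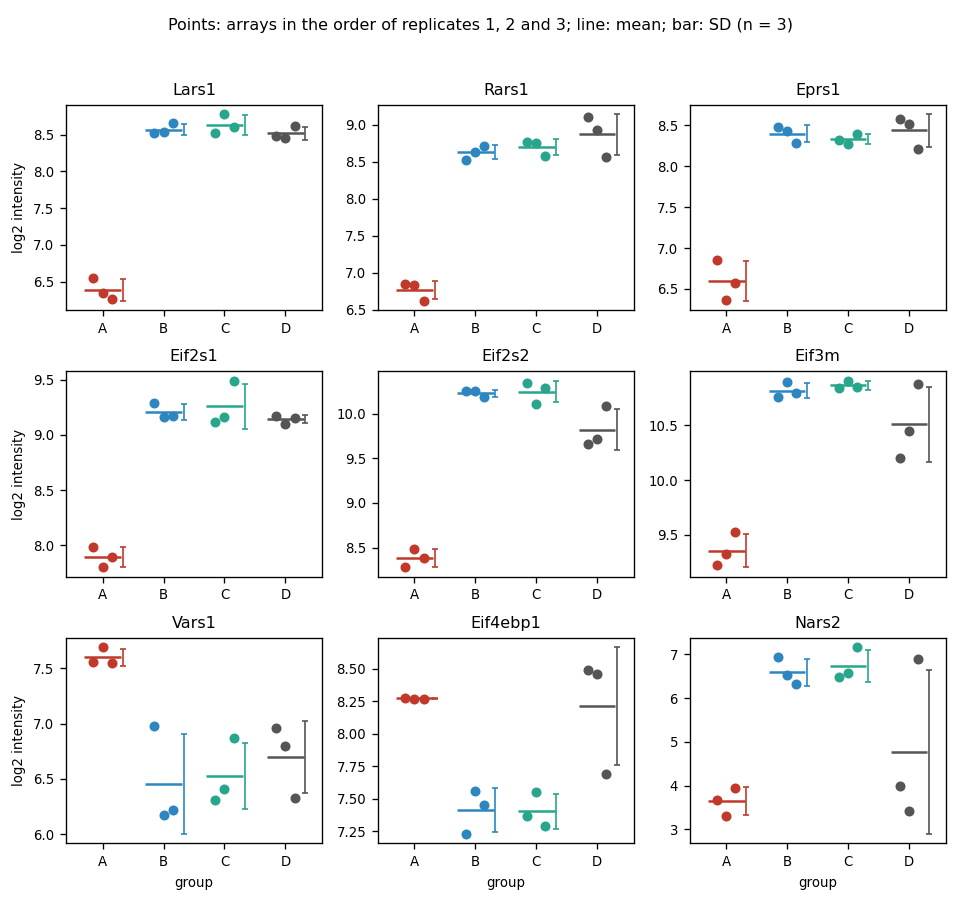
Log2 intensity of 9 members in every array, 1 point an array in the order of replicates 1, 2 and 3, with the mean of each group as a line and the SD (n = 3) as a bar. Group A lies below all other arrays in Lars1, Rars1, Eprs1, Eif2s1, Eif2s2 and Eif3m and above them in Vars1, while in Eif4ebp1 and Nars2 D1 and D2 lie with group A and D3 nearer to groups B and C.

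Among the 13 mitochondrial synthetases, which charge the tRNAs of the mitochondrial genome, 4 were lower in group A than in group D and 1 was higher, and the median was 0.29. The counts stand beside 12.0% and 16.0% of all genes. Rars2 fell by 1.14 ± 0.19 (5.36, 5.96 and 5.16 in group A and 6.60, 6.60 and 6.69 in group D). Wars2 (-1.13), Hars2 (-1.07) and Iars2 (-0.81) were also lower. The call of Wars2 was lost without A2 (-0.98), A3 (-1.11), D1 (-0.99) or D2 (-0.98). Aars2 rose by 1.00 ± 0.28, with 5.84, 5.70 and 5.72 in group A and 4.87, 4.85 and 4.55 in group D, but C1 reached 5.81, and the call was lost without A1 (0.96), A2 (1.03), A3 (1.02) or D3 (0.90). Tars2, which had the highest mean of the mitochondrial synthetases, was at 6.93 to 7.11 in group A and 6.54 to 6.93 in group D and did not pass (0.29). The arginyl and histidyl enzymes were therefore lower in both compartments. Vars2, the mitochondrial valyl enzyme, had a difference of 0.86 with an adjusted p of 0.067 in limma.

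Nars2, the mitochondrial asparaginyl enzyme, was among the members in which D1 and D2 lay with group A. It was at 3.67, 3.31 and 3.95 in group A, at 3.99 in D1, 3.41 in D2 and 6.90 in D3, at 6.93, 6.53 and 6.32 in group B and at 6.47, 6.57 and 7.16 in group C. Values of group A and of D1 and D2 thus lay together, well below those of the 7 other arrays. The difference between A and D (-1.12 ± 0.66) had an adjusted p of 0.276 in limma, whereas that between A and the mean of B and C was -3.02, the largest of all members, with an adjusted p of 0.00113 in limma.

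Of the factors that handle the initiator tRNA, some were lower in group A and others did not pass. In the group named eIF2, eIF2B and eIF5B, which also holds Eif2a and Eif2d, 6 of 12 members were lower than in group D and none was higher, with a median of -0.61. The shares of all genes were 12.0% lower and 16.0% higher. Eif2s1, the alpha subunit of eIF2 and the target of the 4 kinases, was at 7.98, 7.80 and 7.89 in group A, 9.17, 9.10 and 9.15 in group D and 9.12 to 9.49 in groups B and C. Its difference was -1.25 ± 0.11. Eif2s2, the beta subunit, was at 8.28, 8.48 and 8.38 in group A and at 9.66, 9.72 and 10.08 in group D, a difference of -1.44 ± 0.12. Groups B and C were at 10.11 to 10.34, above D1, D2 and D3. Eif5b, the GTPase that joins the large subunit (-1.11), Eif2a (-0.93) and 2 subunits of the exchange factor eIF2B, Eif2b5 (-0.92) and Eif2b3 (-0.78), were lower as well, while the eIF2B subunits Eif2b1 (-0.42), Eif2b2 (0.12) and Eif2b4 (0.08) and the initiation factor Eif2d (0.37) did not pass. For Eif2b5, A1 (6.84) lay above D3 (6.56), and the gene did not pass against groups B and C.

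The gamma subunit of eIF2 is encoded on both sex chromosomes, and its genes varied within groups. Eif2s3y, the Y-linked copy, was at 1.93 in A3, 3.33 in C3 and 1.66 in D3, and between 6.48 and 8.90 in the other 9 arrays. In those same arrays Eif2s3 had the highest value of its group, with 8.72 in A3, 9.24 in C3 and 9.04 in D3. The sources used here do not give the sex of the pups, and groups A, C and D each held 1 such array and group B none. Eif2s3 (-0.38 ± 0.24) and Eif2s3y (-0.44 ± 1.70) did not pass between A and D. That test of Eif2s3y held the low arrays too. Without them it was at 6.48 and 6.57 in group A and 7.32 and 7.31 in group D. Groups B and C were then at 8.61 to 8.90, and these arrays were not tested apart.

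Of the 4 eIF2-alpha kinases, Eif2ak2 (PKR, the kinase that answers to double-stranded RNA) was lower in group A than in group D by 0.93 ± 0.26, with 4.60, 4.60 and 5.33 against 5.35, 5.80 and 6.18. That call was lost without A1 (-0.81), A2 (-0.81), D2 (-0.92) or D3 (-0.73). Eif2ak4 (GCN2, which senses uncharged tRNA) had a difference of -0.39 and Eif2ak3 (PERK, of the endoplasmic reticulum) of -0.38, and neither passed. Eif2ak1 (HRI, the kinase of haem shortage), which had the highest mean of the 4, was at 7.86 to 8.03 in group A and 7.55 to 8.09 in group D. Against groups B and C, Eif2ak2 (-1.69), Eif2ak4 (-0.85) and Eif2ak3 (-0.80) were lower in group A.

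Subunits of eIF3 did not move as a block. Of 11 measured, 5 were lower in group A than in group D (12.0% of all genes) and 1 was higher (16.0%). The median was -0.69. Eif3m was at 9.22, 9.32 and 9.52 in group A and at 10.20, 10.45 and 10.88 in group D (-1.15 ± 0.15), with groups B and C at 10.76 to 10.91. Eif3a, the largest scaffold subunit, was at 7.89, 8.09 and 8.23 against 8.93, 9.11 and 9.54 (-1.12 ± 0.15). In both genes D3 lay with groups B and C, and D1 and D2 lay between those groups and group A. Eif3c (-1.09), Eif3j (-1.04) and Eif3l (-0.85) were lower, and Eif3i (-0.69), Eif3d (-0.27), Eif3k (0.22) and Eif3b (0.25) did not pass. Eif3h, with the highest mean of this role, had 10.65 to 10.80 in group A and 10.85 to 11.02 in group D, a difference of -0.21 that did not pass.

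Eif3f, in contrast, was at 11.10, 11.27 and 11.18 in group A and at 10.80, 10.93 and 10.60 in group D, and groups B and C were at 10.53 to 10.89. It was higher in group A by 0.40 ± 0.13 (adjusted p of 0.0375 in limma), a call lost without A1 (0.44), A2 (0.36), A3 (0.41), B2 (0.40), D1 (0.42) or D3 (0.32).

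Of the eIF4 group, which binds and unwinds the capped end, 5 of 15 were lower in group A than in D and 3 higher. These counts stand beside 12.0% and 16.0% of all genes, and the median was -0.02. The helicases Eif4a1 and Eif4a2 were both lower, by 0.61 ± 0.11 and 0.86 ± 0.18. For Eif4a1, D1 (11.37) and D2 (11.44) were above groups B and C (11.03 to 11.24) and D3 (11.11) among them, and for Eif4a2 D1 and D2 were below them, with 10.28, 10.35 and 10.99 in group D and 10.84 to 11.14 in groups B and C. Group A had the lowest values of both, 10.61 to 10.75 for Eif4a1 and 9.47 to 9.99 for Eif4a2. The cofactor Eif4b (-0.58) and Eif4g2, an eIF4G-like factor used without the cap (-0.83), were lower, whereas the scaffolds Eif4g1 (0.31) and Eif4g3 (0.02) did not pass.

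The cap-binding proteins split. Eif4e itself was at 9.10, 9.11 and 9.18 in group A and at 9.63, 9.62 and 9.45 in group D, a fall of 0.44 ± 0.09 with no overlap between them. Eif4e3 was higher in group A by 0.59 ± 0.14 (7.59, 7.70 and 7.69 against 7.0, 7.25 and 6.98), but its values in groups B and C, from 7.32 to 7.87, overlapped those of group A. Eif4e2 had a difference of 0.31 (adjusted p of 0.179 in limma). Eif4ebp2, which holds eIF4E back when mTORC1 is inactive, rose by 0.49 ± 0.12, with 9.06, 9.34 and 9.18 in group A and 8.77, 8.83 and 8.5 in group D. Its call was lost without A2 (0.42). The RNA-binding cofactor Eif4h rose by 0.37 ± 0.11, and that call was lost without A1 (0.32), A3 (0.35) or D3 (0.27).

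Eif4ebp1, the other well-known mTORC1 target of this family, was at 8.28, 8.27 and 8.27 in group A and at 8.49, 8.46 and 7.69 in group D, a difference of 0.06. Groups B and C were at 7.23 to 7.56, so group A and D1 and D2 lay above them, and D3 lay just above their highest value. Eif4ebp3 had a difference of -0.15 and did not pass.

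Eif1ax, which helps to scan for the start codon, was lower in group A than in group D by 0.70 ± 0.11, with 8.68 to 8.92 against 9.40 to 9.57. Eif5a, the hypusine-bearing factor, was at 10.78, 10.95 and 10.81 in group A and at 10.92, 10.90 and 10.42 in group D (0.10), and its paralog Eif5a2 had a difference of -0.66; neither passed. Eif6, which keeps the large subunit apart, was at 9.73 to 9.86 in group A, 9.0 to 9.65 in group D (0.41, adjusted p of 0.0589 in limma) and 8.88 to 9.09 in groups B and C.

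Of 11 elongation genes measured, 1 was lower in group A than in group D (9.09%, beside 12.0% of all genes) and none was higher (beside 16.0%), with a median of 0.08. At an unadjusted p under 0.05 in limma 2 were lower and 2 higher, beside 16.4% and 24.8% of all genes. Eef1a1, among the brightest probe sets of the members, was at 12.02, 11.85 and 11.89 in group A and 12.18, 12.21 and 12.44 in group D. It fell by 0.36 ± 0.10, and the call was lost without A2 (-0.32), A3 (-0.34) or D3 (-0.27). Its muscle and nerve paralog Eef1a2 was low throughout, at 1.71 to 4.77 over the 12 arrays (-0.51 ± 0.61). Eef2 was at 11.61 to 11.71 in group A and 11.44 to 11.64 in group D (0.08), and its inhibitory kinase Eef2k had a difference of 0.58 with an adjusted p of 0.0859 in limma. Of the 10 members that are textbook TOP mRNAs, whose translation mTORC1 is known to control and which span initiation and elongation, 4 were lower in group A than in group D and 1 was higher, with a median of -0.28.

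**Figure D3:**
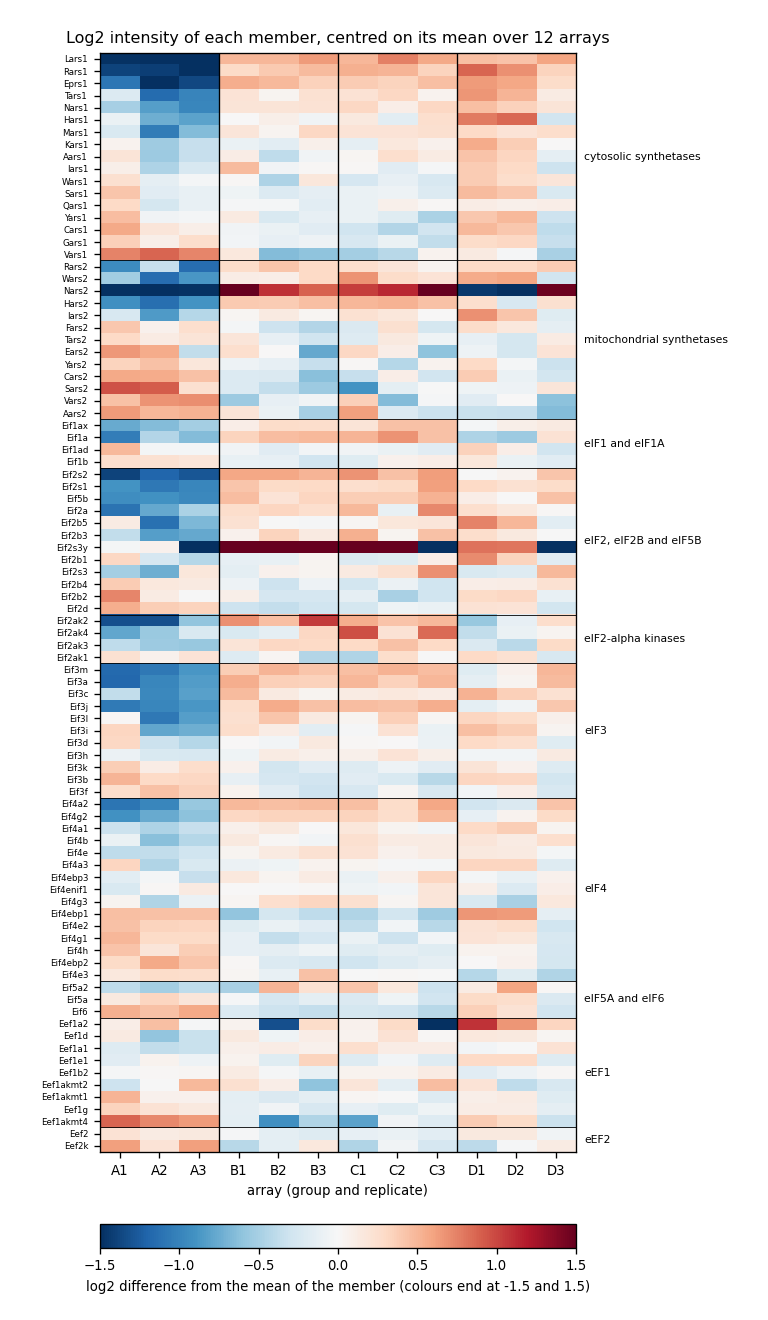
Log2 intensity of the 90 members in the 12 arrays, each centred on its own mean, with blue for lower and red for higher values and lines between groups and roles; colours end at -1.5 and 1.5. Columns A1 to A3 hold the low values of the 29 members in which group A lay below all other arrays, and column D3 looks more like columns of groups B and C than like D1 and D2.

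No member passed the test between group B and group D (0 lower against 0.0141% of all genes and 0 higher against 0.00703%), or between group C and group D (0 lower against 0.0352% of all genes and 0 higher against 0.00703%). At an unadjusted p under 0.05 in limma, 8 members had negative and 9 positive differences for group B, beside 10.5% and 6.47% of all genes, and 10 and 13 for group C, beside 12.2% and 7.42%, so that the negative counts were near the share of all genes. Medians of the members were -0.12 and -0.10, close to those of all genes. With the values as deposited 41 members were lower in group C than in group D, and the median of all genes was then -0.80. In 73 of the 90 members, or 81.1%, D3 lay nearer to the mean of groups B and C than to the mean of D1 and D2, against 71.2% of all genes. Without D3, 13 members were lower and 11 higher in group B than in group D, against 12.8% and 7.15% of all genes, and 14 were lower and 13 higher in group C, against 15% and 8.04% of all genes. Among the members called then, Nars2 had a difference of 2.90 for B and 3.03 for C, Eif4ebp1 of -1.07 for both, Eif1a of 0.93 and 1.05, Eif2ak2 of 1.08 and 0.83 and Eif6 of -0.58 and -0.61. These values rest on D1 and D2 alone, the arrays with the smooth muscle signal. Between groups B and C no member passed (0% of all genes), and 1 had an unadjusted p under 0.05 in limma, Eif2ak4 with -0.70.

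The comparison of group A with groups B and C sets CLA through milk against CLA by gavage. Group C also lacked CLA in gestation and so had it for fewer weeks, which this comparison does not separate from route. The comparison added 5 lower and 20 higher members to those that also passed against group D. In it 16.9% of all genes were lower and 31.6% higher, those that also passed against group D included. The falls of Lars1 (-2.21), Rars1 (-1.90), Eif2s2 (-1.86), Eprs1 (-1.77), Eif3m (-1.49), Hars2 (-1.43), Eif3a (-1.42) and Eif3j (-1.42) stood beside -2.13, -2.10, -1.44, -1.84, -1.15, -1.07, -1.12 and -1.04 against group D. Eif1a, at 6.67, 7.27 and 7.05 in group A and 8.04 to 8.38 in groups B and C, was lower by 1.19, while D1 (7.24) and D2 (7.16) lay with group A and D3 (7.92) under groups B and C. This holds for its brightest probe set. On 2 others of Eif1a, all of group D lay above group A (7.09 to 7.69 over 5.43 to 5.91, and 6.39 to 6.73 over 3.81 to 4.24), and both were lower in group A than in D (-1.65 and -2.49).

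Of the rises, Eef1akmt4 (1.17), Vars1 (1.11) and Sars2 (1.07) exceeded 2-fold. Eef1akmt4, a methyltransferase of eEF1A, was at 6.24, 6.09 and 6.01 in group A and at 4.45 to 5.31 in groups B and C. Eif4ebp1 (0.87), Eif6 (0.81), Cars2 (0.78), Vars2 (0.77), Eef2k (0.68), Eif2d (0.65) and Eif3b (0.62) were higher too. For Eif3b, D1 (9.38) and D2 (9.36) were within the range of group A (9.35 to 9.56) and D3 (8.78) within that of groups B and C (8.64 to 8.93). The call of Eef2k was lost without A1 (0.61) or A3 (0.61), and that of Vars2 without A1 (0.86), A2 (0.74), A3 (0.73), B1 (0.70), B2 (0.80), C2 (0.64) or C3 (0.80). With the values as deposited the median of the members in this comparison was 0.40 beside 0.73 for all genes, and with centring on the 75th percentile it was -0.01 beside 0.34, so the sign of the members' median turned with the scaling while it stayed below that of all genes.

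Where a fallen gene had further probe sets, these often fell more than the brightest. The 18 members lower in group A than in D that had other probe sets held 23 of them. Of these 16 were lower and none was higher in group A in limma, and 15 were above background in all arrays of groups A and D. The fall was larger than that of the brightest in 14, and in 13 with values of group A raised to the background. The median difference of the 23 was -1.52, beside -0.96 for the brightest probe sets of the same genes. These genes were picked by the fall of their brightest probe set in the same arrays. A shared direction on their other probe sets is therefore no separate support. The share over other probe sets of all genes was not counted. Eif4g2 gave -0.83 on its brightest probe set and -1.14 and -3.16 on the others, Eprs1 gave -1.84 and -2.12 and Hars1 gave -1.0 and -2.29. A further probe set of Eprs1 and the other of Eif3a were above background in 1 of the 3 arrays of group A, so their differences, -2.93 and -2.66 with group A raised to the background, are bounds. The last of Eprs1, dim and not above background in any array of group D, had a difference of 1.30, and a dim probe set of Kars1, above it in 1 array of group D, one of 0.70; neither passed. Members that were not lower had 27 other probe sets, of which 2, both of Eif1a, were lower and 1 higher. Which exons the probe sets read is not given in the tables used here, and the part of RNA integrity in these differences was not tested.

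**Figure D4:**
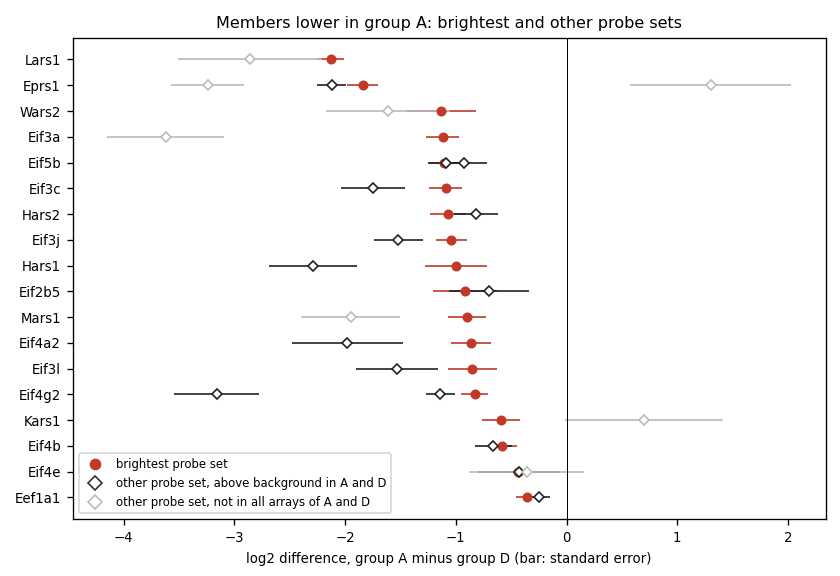
Log2 difference of group A minus group D for the brightest probe set (red circles) and the other probe sets (open diamonds) of the 18 genes lower in group A that have them, with bars for the standard error. Grey diamonds were not above background in every array of groups A and D, and 14 of the 23 diamonds lie to the left of their circle.

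Promoters were searched because the synthetases are known as targets of Atf4 and genes of protein synthesis as targets of Myc. The sequences run from 250 bases before to 50 after the start site of RefSeq transcripts on rat build GRCr8, and 83 of the 90 members had at least 1. Eif4b, Rars1, Eif4ebp1, Eef1d, Eif3h, Gars1 and Eif4e3 had none in the table. The letters TGATGNAAN on either strand, a form of the element that Atf4 binds with its partners, were present in 3.97% of all 33469 promoters and in 8 members, or 9.64%. These were 7 of the 15 cytosolic synthetases with a promoter and Eif2s2. Of members lower in group A than in group D 4 of 29 held it, of those higher 0 of 5 and of those not passing 4 of 49. The windows of the 4 lower members, and those of Iars1 and Aars1, which did not pass, are shown 5' to 3' on the strand of the gene, with the element in capitals.
Tars1: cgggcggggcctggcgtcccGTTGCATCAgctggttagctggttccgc
Nars1: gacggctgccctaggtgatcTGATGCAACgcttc
Mars1: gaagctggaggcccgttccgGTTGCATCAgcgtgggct
Eif2s2: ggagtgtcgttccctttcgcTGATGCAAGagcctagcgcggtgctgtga
Iars1: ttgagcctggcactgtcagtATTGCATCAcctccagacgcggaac
Aars1: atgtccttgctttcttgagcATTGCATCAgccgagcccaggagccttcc

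These windows lie at chr2:62114803-62114850 on the minus strand for Tars1, chr18:60275783-60275816 on the minus strand for Nars1, chr7:65023754-65023791 on the minus strand for Mars1, chr3:163855578-163855626 on the minus strand for Eif2s2, chr17:15193653-15193697 on the minus strand for Iars1 and chr19:55908349-55908397 on the plus strand for Aars1. All 6 end before the start site. Their elements begin 28 bases before it in Tars1 (position -28), at -14 in Nars1, -18 in Mars1, -36 in Eif2s2, -25 in Iars1 and -113 in Aars1. Cars1, Yars1 and a further element of Aars1 had the letters after the start site. The same letters thus stood in synthetases that were lower (Tars1, -1.22; Nars1, -1.09; Mars1, -0.90) and in synthetases that did not pass (Aars1, -0.44; Iars1, -0.33; Yars1, -0.07; Cars1, 0.11).

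The E-box CACGTG, a palindrome that Myc and related factors bind, was in 6.42% of all promoters and in 17 members, or 20.5%. It was found in 3 of 29 members lower in group A than in group D, in 3 of 5 that were higher and in 11 of 49 that did not pass. The windows of the 3 higher members are shown with the E-box in capitals.
Vars1: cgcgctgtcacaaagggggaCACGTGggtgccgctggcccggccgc
Eif3f: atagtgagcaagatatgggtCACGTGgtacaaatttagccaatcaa
Eif4h: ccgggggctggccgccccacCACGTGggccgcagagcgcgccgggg

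They lie at chr20:3824965-3825010 on the minus strand for Vars1, chr1:172368983-172369028 on the plus strand for Eif3f and chr12:27719504-27719549 on the plus strand for Eif4h, with the E-box beginning at -39, -59 and -168. The other promoters with it were those of Aars1, Ears2, Eef1akmt4, Eef2, Eef2k, Eif1b, Eif3a, Eif3b, Eif4e, Eif4g1, Eif5a, Eif5a2, Iars1 and Tars1, of which Eif3a, Eif4e and Tars1 were lower in group A. These matches describe letters in a window and were not tested as binding sites.

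Other genes of the pathway were taken from lists that the naming rule leaves out. Of 8 genes of termination and of the mRNA tail, 5 were lower in group A than in group D and none was higher, with a median of -0.89. The shares of all genes were 12.0% lower and 16.0% higher. Abce1, which splits the ribosome after termination, was at 7.01, 6.81 and 6.97 in group A and 8.55, 8.59 and 8.79 in group D (-1.71). The release factors Etf1 (-0.79) and Gspt1 (-0.45), the tail-binding inhibitor Paip2 (-0.98) and Pdcd4, an inhibitor of eIF4A (-1.37), were lower too, so that both factors and inhibitors fell. In the multi-synthetase complex the scaffold protein Aimp1 fell by 1.70, with 6.27 to 6.72 in group A and 7.87 to 8.37 in group D, while Aimp2 (0.11) did not pass. Eef1e1, a member that its symbol places with elongation and that is also part of this complex, did not pass (-0.20). The subunits of the phenylalanyl enzyme parted, with Farsb at -1.06 and Farsa at 0.86, both past the test.

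Of 8 mitochondrial translation factors, 4 were lower in group A than in group D (Gfm1, -0.66; Gfm2, -0.72; Mtif2, -1.28; Mtrf1l, -0.82) and none was higher, beside 12.0% and 16.0% of all genes. For Mtif2, which starts mitochondrial translation, D1 (7.10) and D2 (7.35) lay between group A (6.30 to 6.66) and D3 (8.76), and D3 lay among groups B and C (8.61 to 8.93). The list of mTORC1 control held 12 genes, among them Mknk1 and Mknk2, which are kinases of eIF4E. Of the 12, none was lower and 4 were higher, beside 12.0% and 16.0% of all genes. At an unadjusted p under 0.05 in limma 1 was lower and 6 higher, beside 16.4% and 24.8% of all genes. The 4 past the adjusted test were Sesn2 (1.13), a leucine-binding brake on mTORC1, the mTORC1 inhibitor Tsc2 (0.61), Mknk1 (0.47) and Mknk2 (0.63).

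In the list of the integrated stress response 2 of 13 genes were lower and 3 higher, beside 12.0% and 16.0% of all genes. Trib3 (1.12), Ppp1r15a, which restores eIF2 (0.83), and Sesn2, which is in both lists (1.13), were higher. Psat1, of serine synthesis (-0.76), and Nupr1 (-1.06) were lower. Atf4 itself was at 9.95 to 10.10 in group A and 9.93 to 10.22 in group D (-0.06), Ddit3 had a difference of -0.03 and the asparagine synthetase gene Asns one of -0.56, and none of these passed. The members of the response thus had calls in both directions, with a median of 0.16 beside 0.15 for all genes.

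Markers of other cells had calls between groups A and D as well, beside 12.0% lower and 16.0% higher of all genes. Of 5 plasma cell genes 3 were higher in group A than in D (Jchain, 1.36; Mzb1, 1.06; Tnfrsf17, 1.42), and the summed log2 level was 11 to 11.10 in group A, 10.27 to 10.87 in groups B and C and 10.13 to 10.71 in group D. All 5 were above background in every array. Of 10 proliferation genes 3 were lower (Mki67, -0.84; Pcna, -0.73; Ccnb1, -0.67) and 1 higher (Birc5, 0.75), with a summed log2 level of 11.28 to 11.58 in group A and 11.40 to 11.93 in group D. Of 5 smooth muscle genes 3 were lower in group A than in group D (Actg2, -3.84; Cnn1, -2.95; Myh11, -3.02), and D1 and D2, not D3, held the high values. None of the 5 passed between group A and groups B and C. Of 8 T cell genes 1 was lower in group A than in group D (Cd8a, -0.71) and none higher. Among the lists of other cells, 1 of 4 B cell genes was lower and 2 were higher, 1 of 4 genes of lymph node stroma was lower and 1 higher, and 1 of 5 adipocyte and 1 of 5 gut epithelium genes were lower, with no call among 5 pancreas genes. The gut epithelium genes included Epcam, which was at 3.70 in D1, 5.06 in D2 and 7.29 in D3 and at 0.88 to 3.43 in the other arrays. The part of these cells in the differences of the translation genes was not tested.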

How the data were processed

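RNA of 12 nodes was hybridized to Affymetrix arrays of the rat genome. The deposited values are linear signal intensities of probe sets, made by the authors with MAS5 per the labels. The version and scaling target of MAS5 are not given in the sources used here. In each group the median intensity of an array ranged from 27.6 to 32.9 (A), 19.3 to 30.9 (B), 20.2 to 27.0 (C) and 34.3 to 38.5 (D), so the intensities were not taken as comparable as deposited. The 30 zeros took the smallest positive value, and the 12 arrays were then quantile normalized on the log2 scale with a floor at an intensity of 1. The file holds 31099 probe sets, and without 57 controls the tests covered 31042, of which 20826 had 1 symbol, 436 several and 9780 none in the platform annotation. Probe sets with several symbols were not used, among them 7 that the naming rule would take, and all 90 members carried the same symbol in the RefSeq table of GRCr8.

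A model of group means was fitted to all arrays in R 4.3.3 with limma 3.58.1 (eBayes with an intensity trend), with two-sided tests and Benjamini-Hochberg adjustment over all probe sets in each of 5 comparisons. With 3 arrays against 3 an exact permutation test has a smallest p of 0.1, and the number of arrays limits the precision. Background was set in each array at percentile 95 of the 27 spike-in probe sets whose transcripts were not added. Scripts were tested on simulated data. Named genes were the 10 largest falls and 10 largest rises past the test in each comparison, the member with the highest mean of each role, members whose probe sets disagreed, and pairs of paralogs; other members are named in describing each role, the array values of Eif1a, Eif2s3 and Eif2s3y and the genes of the pathway and marker lists among them, chosen with values known. The members and the lists were chosen with earlier results of these data known. Alternatives tried were no scaling of the deposited values, scaling to the 75th percentile, a floor of 32, dropping the dimmest 40%, no variance trend, only the groups compared, a replicate block, the mean of all probe sets, other probe sets, unadjusted p, a fold of 2, and leaving out each array in turn.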

Additional observations from a re-analysis of the deposited data

Results flagged for a closer look

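Group A and the gavage groups B and C differed by the test of the difference itself in 33 members that were lower and 24 that were higher in group A. Of all genes 16.9% were lower and 31.6% higher. The difference does not use the mean of group D, but the arrays of group D entered the variance behind its p-values. Without D3 the counts were 38 lower and 26 higher, and with only the groups compared 37 lower and 26 higher. The comparison sets groups apart by route of CLA, by gavage and, for group C, by CLA in gestation, and these cannot be told apart. Among the named members, the differences of group A minus the mean of groups B and C were -3.02 for Nars2, -2.21 for Lars1, -1.90 for Rars1, -1.86 for Eif2s2, -1.77 for Eprs1, -1.69 for Eif2ak2, -1.49 for Eif3m, -1.43 for Hars2, -1.42 for Eif3a and -1.42 for Eif3j. They were 1.17 for Eef1akmt4, 1.11 for Vars1, 1.07 for Sars2, 0.87 for Eif4ebp1, 0.81 for Eif6, 0.78 for Cars2, 0.77 for Vars2, 0.68 for Eef2k, 0.65 for Eif2d and 0.62 for Eif3b. Every named value has an adjusted p under 0.05 in limma.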

How the results depend on the processing

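Between groups A and D, the count of lower members was 23 to 35 with 1 array left out, and 16 at a fold of at least 2. It was 21 with only the groups compared, 23 with values as deposited and 26 with a floor of 32. Without the trend of the variance it was 26, and at unadjusted p 37. The count of higher members was 0 with values as deposited, 10 with a floor of 32, 3 without the trend of the variance, 3 with only the groups compared, 14 at unadjusted p, 1 at a fold of at least 2, and 2 to 7 with 1 array left out (3 without A1, 2 without A2 and 3 without A3). For group B the unadjusted counts were 8 lower and 9 higher, and leaving out 1 array gave 0 to 13 lower and 0 to 11 higher, the highest without D3. For group C they were 10 lower and 13 higher, with 0 to 14 and 0 to 13 when 1 array was left out, the highest again without D3, and 41 lower with values as deposited. Against groups B and C, 16 were lower in group A as deposited and 18 at a fold of at least 2, and 3 were higher at that fold, with 16 to 26 higher when 1 array was left out (16 without A1). Groups B and C differed in 1 member at unadjusted p.

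The replicate numbers gave no clear pairing of the arrays of different groups. Deviations of the same number had r of -0.0152 to 0.0826, and those of other numbers had r of -0.0927 to 0.0375. With a replicate block 32 were lower and 7 higher between A and D, and 36 and 25 against groups B and C.

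Some differences of group A against groups B and C turned sign. With values as deposited they were 0.10 for Eef1a1, 0.47 for Eif3h, 0.30 for Eif4a1 and 0.19 for Eif4e, and with the 75th percentile 0.06 for Eif3h. On other probe sets they were -0.58 for Eef1g (-0.10 for the mean of its probe sets), 0.04 for Eif3h, 0.97 for Eif4e, -0.23 for Vars1 and 2.01 for a dim probe set of Eprs1. Against group D, other probe sets gave -0.26 for Eif4h and 1.30 for Eprs1. The cause was not tested.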
